A study of Mus musculus with 20 samples.

Results

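Pitavastatin was set against 3 other statins in the left ventricle of the mouse heart. The members are 16 hearts of the 20 in the study: 4 of mice given pitavastatin and 12 of mice given pravastatin, rosuvastatin or atorvastatin. They were chosen by their labels alone. The value compared was the mean of the 4 pitavastatin hearts minus the equally weighted mean of the 3 other statin groups, and no control heart entered that difference. The mice were male C57BL/6J, arrived at 6 weeks of age and were acclimated for 2 weeks. The statins, as powdered tablets of the calcium or sodium salts, were mixed into standard chow for 4 weeks. The doses were 4.5 mg/kg/day of pitavastatin calcium, 21.0 mg/kg/day of pravastatin sodium, 10.9 mg/kg/day of rosuvastatin calcium and 11.4 mg/kg/day of atorvastatin calcium hydrate, in 4 mice each. The 4 control mice are labelled only as control, and their signals are given beside the results as a reference level. The doses differed among the drugs, so every difference below is one between these drugs at these doses in normal hearts. Each mouse gave 1 array.

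Statins inhibit the enzyme that makes mevalonate, the precursor of cholesterol, of coenzyme Q and of the prenyl groups that anchor small GTPases to membranes. In the liver, the fall in sterol is known to raise the genes of cholesterol synthesis through the SREBP factors. Heart muscle lives mainly on the oxidation of fatty acids, and its ventricular RNA is rich in transcripts for mitochondrial and contractile proteins.

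Of 22519 probe sets tested, 5 were called, and all 5 gave a lower signal in the pitavastatin hearts. They belong to Med1, Zfp516, Wipi1, Rhobtb1 and Tbc1d9. A call means an adjusted p under 0.05 from limma, a linear model with shared variance estimates, after Benjamini-Hochberg adjustment over all tested probe sets. The 5 calls are 0.0222% of those tested. Signals are given as log2(signal + 16), so a difference of 1 is a doubling, and the added 16 understates the change of dim genes.

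Med1 encodes the subunit through which the Mediator complex, the bridge between transcription factors and RNA polymerase II, is known to bind nuclear receptors. Its probe set 1421907_at read 9.61, 9.59, 9.69 and 9.65 in the 4 pitavastatin hearts. In the 12 other hearts it ran from 9.95 through a median of 10.38 to 10.69. The 4 pitavastatin hearts lay close together, and all 4 were below every one of the 12. The group means were 9.63 ± 0.04 (SD, n = 4) and 10.39 ± 0.21 (SD, n = 12). The difference was -0.76 (SE 0.11, 95% interval -0.98 to -0.53), 1.69-fold lower, with an adjusted p of 0.0155 in limma. The controls averaged 9.70 ± 0.32 (SD, n = 4), with 1 heart at 10.18, and so lay near the pitavastatin hearts.

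Zfp516 encodes a zinc finger transcription factor known from the thermogenic genes of brown fat. Its probe set 1437921_x_at read 9.26, 9.18, 9.14 and 8.97 with pitavastatin. The other statins ran from 9.48 through a median of 9.60 to 9.73. All 4 pitavastatin hearts lay below all 12 others and below the 4 controls, which ran from 9.30 to 9.53. The difference was -0.47 (SE 0.07), with an adjusted p of 0.0155 in limma. The suffix of this probe set marks probes that may also bind other transcripts.

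Wipi1 encodes a phosphoinositide-binding protein of early autophagosomes. Its probe set 1438709_at read 7.96, 7.87, 8.35 and 7.88 with pitavastatin. The other statins ran from 8.42 through 8.74 to 9.07, so pitavastatin 3 came close to the lowest of them. The difference was -0.72 (SE 0.12), with an adjusted p of 0.0382 in limma, and the control mean was 8.32 ± 0.20 (SD, n = 4).

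Rhobtb1 encodes a protein with BTB domains that bind the cullin 3 ubiquitin ligase. Its probe set 1429206_at read 11.69, 11.50, 11.50 and 11.70 with pitavastatin. The other statins ran from 11.70 through 12.40 to 12.63. The highest pitavastatin heart and the lowest of the others met at 11.70 after rounding and did not overlap unrounded. The difference was -0.70 (SE 0.12), with an adjusted p of 0.0382 in limma, and the controls averaged 12.00 ± 0.32 (SD, n = 4).

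Tbc1d9 encodes a protein with a TBC domain, the domain of Rab GTPase-activating proteins. Its probe set 1455015_at read 7.61, 7.64, 7.05 and 7.17 with pitavastatin. The other statins ran from 7.84 through 8.11 to 8.46, and the controls from 7.74 to 8.12. Pitavastatin hearts were thus the lowest of all 20. The difference was -0.76 (SE 0.13), with an adjusted p of 0.0410 in limma.

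**Figure D1:**
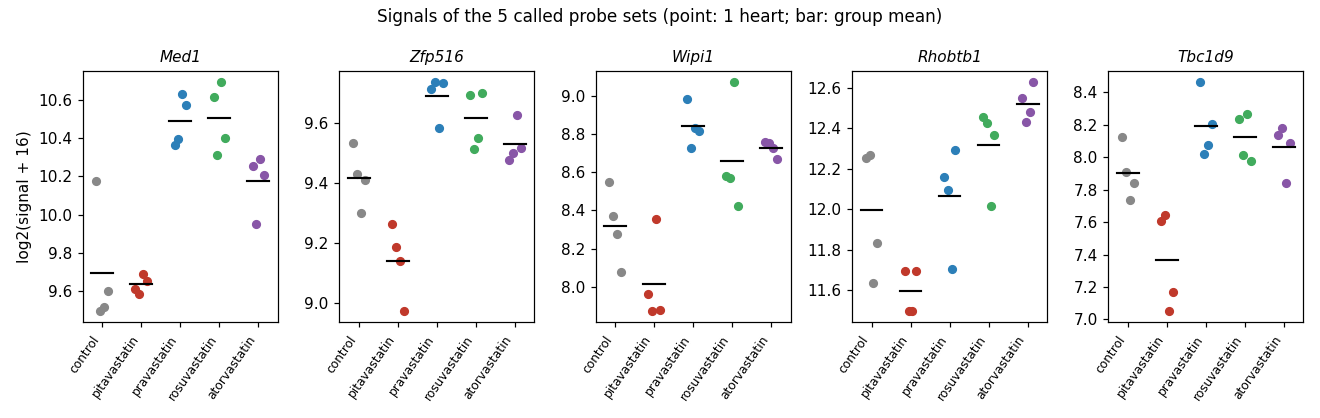
Signal of the 5 called probe sets as log2(signal + 16) on the vertical axis, with 1 point per heart and a bar at each group mean, n = 4 per group. In each panel the 4 pitavastatin hearts sit below the 12 hearts of the other statins, and for Med1 the control mean of 9.70 lies beside the pitavastatin mean of 9.63.

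The other probe sets of Med1 and Wipi1 did not show the lower signal. The brightest Med1 probe set, 1448708_at, averaged 12.42 ± 0.08 (SD, n = 4) with pitavastatin and 12.43 ± 0.12 (SD, n = 12) with the others. A further tested Med1 probe set differed by -0.10, and 2 others were higher with pitavastatin, by 0.28 and 0.26. The brightest Wipi1 probe set averaged 10.67 against 10.69, and the 3 other tested ones differed by -0.11, -0.08 and 0.12. For Rhobtb1 the other probe set also lay lower, by 0.38, at 7.28 ± 0.52 (SD, n = 4) against 7.66 ± 0.18 (SD, n = 12). Zfp516 and Tbc1d9 each had 1 other probe set, both under the brightness filter. These dim probe sets were higher with pitavastatin, by 0.2 for Zfp516 and 0.64 for Tbc1d9. Which transcript forms the probe sets measure was not tested.

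Against the single statins the 5 genes were lower with pitavastatin in all 15 pairs of means. Against pravastatin, Med1 (-0.85) and Zfp516 (-0.55) were called, both with an adjusted p of 0.0299 in limma. Against rosuvastatin, Med1 (-0.87) alone was called, with an adjusted p of 0.0449. No probe set was called against atorvastatin, where the smallest adjusted p in limma was 0.0594 and 2744 of 22519 lay under 0.05 unadjusted. About 1126 would be expected there by chance. Med1 differed less from atorvastatin (-0.54) than from the other 2, while Rhobtb1 differed most from atorvastatin (-0.93), then rosuvastatin (-0.72) and pravastatin (-0.47). These 3 pairs share the pitavastatin hearts. A moderated F test among the 3 other statins called 0 probe sets, with a smallest adjusted p of 0.929. Before adjustment 753 of 22519 lay under 0.05, fewer than the 1126 expected by chance. The unadjusted p of this F test was 0.0329 for Med1 and 0.0147 for Rhobtb1.

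The calls rest on all 4 pitavastatin hearts. Without pitavastatin 1, 2 or 4 none of the 5 passed, and without pitavastatin 3 only Wipi1 did. Without atorvastatin 2, the brightest array, 43 probe sets passed, all lower with pitavastatin. Without rosuvastatin 2 there were 11, and without any 1 of the 10 other arrays of the comparison statins 2 to 4. Med1 and Zfp516 stayed called without any 1 of the 12 other arrays. With each array centred on its median, 0 probe sets passed, and the 5 genes kept lower signals, with differences from -0.91 for Tbc1d9 and Med1 to -0.63 for Zfp516 and an adjusted p of 0.8 each. Other settings called more probe sets, and the share of higher ones varied. It was 455 of 1382 with array weights, and 115 of 247 with the median signal of each array as a covariate. Few were higher with a replicate block (8 of 184), with the 16 statin arrays alone (10 of 110) and after quantile normalization (1 of 17).

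The sequences before the start sites of 4 of these genes are shown because their signals were lower together. Each runs from 100 bases before to 50 bases after the first start listed by RefSeq (GRCm38.p6), 5′ to 3′ on the strand of the gene. The positions are chr11:98192857-98193006 on the minus strand for Med1, chr11:109611340-109611489 on the minus strand for Wipi1, chr10:69208452-69208601 on the plus strand for Rhobtb1 and chr8:83165252-83165401 on the plus strand for Tbc1d9. Capitals mark GC boxes (GGGCGG) and CCAAT boxes (CCAAT), searched on both strands.
Med1: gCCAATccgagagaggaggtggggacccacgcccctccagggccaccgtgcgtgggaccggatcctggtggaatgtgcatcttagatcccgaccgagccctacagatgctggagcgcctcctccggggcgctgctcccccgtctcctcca
Wipi1: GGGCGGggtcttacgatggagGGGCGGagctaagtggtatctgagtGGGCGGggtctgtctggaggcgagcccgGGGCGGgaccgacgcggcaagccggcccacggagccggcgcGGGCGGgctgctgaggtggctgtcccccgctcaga
Rhobtb1: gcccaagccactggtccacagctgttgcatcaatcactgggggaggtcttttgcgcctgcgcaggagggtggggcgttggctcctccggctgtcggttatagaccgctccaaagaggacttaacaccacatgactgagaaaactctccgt
Tbc1d9: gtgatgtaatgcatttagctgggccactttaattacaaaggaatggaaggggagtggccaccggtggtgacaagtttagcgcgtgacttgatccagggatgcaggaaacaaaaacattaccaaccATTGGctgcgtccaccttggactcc
The 150 bases of Wipi1 held 5 GC boxes. Those of Med1 and Tbc1d9 each held 1 CCAAT box, and those of Rhobtb1 held neither motif. Over windows of 300 bases, 64% of the 9056 genes with a listed promoter held a GC box and 38.1% a CCAAT box. The matches describe letters only.

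The arrays differed in brightness, and the deposited values do not share a common median. The median signal of the pitavastatin arrays was 6.33 to 6.70 on the log2 scale, within the range of 5.38 to 7.17 of the other statins. That range is set by rosuvastatin 3, with a median signal of 41.7, and atorvastatin 2, with 144. Of 10 array measures, among them 3′ to 5′ ratios of Actb and Gapdh, 18S ribosomal RNA and hybridisation controls, none passed a test between the 4 and the 12 arrays. Their two-sided exact permutation p ran from 0.112 to 0.77, all 0.77 after adjustment over the 10, where the smallest possible p was 0.000549. The first principal component of the tested probe sets held 57.1% of the variance, with rosuvastatin 3 and atorvastatin 2 at its ends. The number of arrays limits precision: the median 95% interval reached 0.29 to either side of the difference.

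Beyond the 5 calls, 2975 probe sets (13.2% of those tested) had an unadjusted p under 0.05. Of these, 1759 (7.81%) were lower and 1216 (5.4%) higher with pitavastatin. The lower ones thus made 59.1% of the 2975, while 58.6% of all tested probe sets had a difference above 0, with a median of 0.0469. The split depends on the scaling. Lower ones made 55% after quantile normalization and 76% after centring each array on its median, which moved the median of all probe sets by -0.155. The majority turned with array weights (2788 lower and 3048 higher), with the median signal as a covariate (2014 and 2618) and without rosuvastatin 3 and atorvastatin 2 (2020 and 2260). Differences of gene lists are therefore also read against that overall median below. The median differed with brightness: in 4 classes of mean signal it was 0.149, 0.0759, -0.00558 and -0.000946, from dimmest to brightest. For lists of bright genes, distances from the overall median are to be read with this limit. Centring moved every difference by the same amount, so it left the distance of each list from the overall median unchanged. At an adjusted p under 0.1 there were 102 probe sets, 98 lower and 4 higher.

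**Figure D2:**
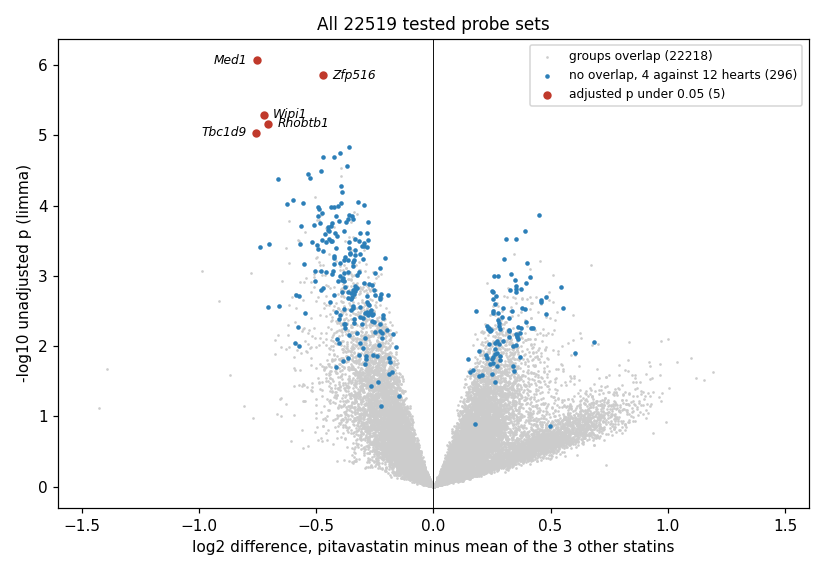
Each of the 22519 tested probe sets by its log2 difference, pitavastatin minus the mean of the 3 other statins (horizontal), and the -log10 of its unadjusted p in limma (vertical). The 5 called probe sets are all on the lower side. Blue points are the 296 further probe sets whose 4 pitavastatin signals did not overlap the 12 others.

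The 4 genes on the higher side of the 100 smallest p were Tyw5, Hba-a2, Mgst3 and Oxct1, none of which passed. Tyw5, an enzyme of transfer RNA modification, read 9.14, 8.86, 9.17 and 9.16 with pitavastatin and 8.49 to 8.80 with the others, a median of 8.62. All 4 lay above all 12, with a difference of 0.45 (SE 0.10) and an adjusted p of 0.0801 in limma. Mgst3, a microsomal glutathione transferase, averaged 12.93 ± 0.07 (SD, n = 4) against 12.58 ± 0.11 (SD, n = 12), with an adjusted p of 0.088. Oxct1, the mitochondrial enzyme that lets heart muscle use ketone bodies, averaged 14.08 ± 0.11 (SD, n = 4) against 13.77 ± 0.10 (SD, n = 12). Its difference was 0.31, and 0.17 after quantile normalization.

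Hba-a2, an alpha globin gene, read 11.38, 11.44, 11.35 and 11.41 with pitavastatin. The other statins ran from 10.65 through 11.01 to 11.19, all below those 4, and the controls from 10.87 to 11.36. The difference was 0.39 (SE 0.09, adjusted p 0.0864 in limma). A near-identical copy, Hba-a1, shares its sequence, so the signal cannot be given to 1 of them. Globin transcripts come with blood, and Alas2, the erythroid enzyme of heme synthesis and the only erythroid marker above the filter, differed by 0.44 (SE 0.23). The part of residual blood in the globin signal was not tested.

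Among probe sets with 1 gene symbol, the 10 lowest of the 100 were the called genes other than Zfp516, with Zfp871, Cdk12, Wee1, Map3k2, Eif4e2 and Sde2. Cdk12, a kinase of the RNA polymerase II tail, read 8.53, 8.08, 8.54 and 8.40, and 8.76 to 9.31 with the others. Its 4 hearts lay below all 12, by 0.66 on average (adjusted p 0.0586 in limma). Map3k2, a kinase upstream of the stress-activated kinases, averaged 7.51 ± 0.09 (SD, n = 4) against 8.14 ± 0.11 (SD, n = 12). Zfp871, a zinc finger gene, differed by -0.70, with an adjusted p of 0.0896. Wee1, the kinase that restrains entry into mitosis, differed by -0.63. Eif4e2, a cap-binding protein that can repress translation, differed by -0.62, and Sde2, a factor of DNA replication and splicing, by -0.60. With only 4 on the higher side, the rest of the 10 highest were negative, from -0.28 to -0.30. They were Ccdc43, the splicing regulator Esrp2, the Polycomb subunit Suz12, the poly(A) polymerase Tent4b, the actin regulator Raph1 and the argonaute protein Ago4.

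Probe sets whose 4 pitavastatin signals all lay outside the 12 others numbered 301 (1.34%), with 207 below (0.919%) and 94 above (0.417%). The lower 207 carried 179 genes with a median difference of -0.363, and the higher 94 carried 84 genes with a median of 0.297. Only 13 of the lower and 2 of the higher exceeded 1.5-fold. For 139 of the 207 lower ones the control mean was nearer to pitavastatin than to the other statins. For 63 of the 94 higher ones it was nearer to the other statins. The higher set held an H2-K1 probe set at 0.69, named after its value was seen. Of the other tested probe sets of the lower genes, 216 of 324 were lower, with a median of -0.101. For the higher genes, 70 of 89 were higher, with a median of 0.171. Of all tested probe sets 41.4% were lower and 58.6% higher. The same hearts picked the genes, so this agreement is not independent of the choice.

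These counts move with scaling and with the arrays included. Leaving out arrays can only keep or raise them, because fewer hearts then have to lie apart. With the arrays centred on their medians, 27 probe sets lay below and 11 above. Without rosuvastatin 3 and atorvastatin 2 together, 372 lay below and 262 above. Without pitavastatin 1 alone, 456 lay below and 227 above.

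Gene lists show which functions lay on each side. Each gene is measured by its brightest probe set, and no list member was called on that probe set. Counts of members at an unadjusted p under 0.05 are to be read against the 5.4% higher and 7.81% lower of all tested probe sets. In the brightest of 4 classes of mean signal these shares were 9.88% and 15.4%. Lists of bright genes are to be read against the latter shares.

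Transcripts of the respiratory chain lay higher with pitavastatin. All 33 measured subunits of complex I, which takes electrons from NADH, had a positive difference, with a median of 0.212 and 11 at an unadjusted p under 0.05. Of 38 subunits of complexes II to V, 36 were positive, with a median of 0.217. The mean of the complex I genes was 14.26, 14.39, 14.27 and 14.38 in the pitavastatin hearts. It ran from 13.72 through 14.08 to 14.52 in the others, of which 2 reached the lowest pitavastatin heart, and from 14.02 to 14.31 in the controls. Ndufs4, an accessory subunit, averaged 13.53 ± 0.03 (SD, n = 4) against 13.28 ± 0.11 (SD, n = 12), with no overlap. Ndufa10 differed by 0.34 (SE 0.11), Ndufa8 by 0.33 and Ndufb10 by 0.32. Cyc1, the cytochrome of complex III, differed by 0.29 and Uqcrq, another of its subunits, by 0.24.

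Other steps of energy supply lay on the same side. The median was 0.144 for 19 tricarboxylic acid cycle genes, 18 of them positive, with Idh2 at 0.31 and Ogdh at 0.27. It was 0.174 for 22 fatty acid oxidation genes, 18 positive, with Echs1 at 0.37 and Cpt2 at 0.24. Glycolysis had 13 of 16 positive and a median of 0.217. Pkm, the muscle pyruvate kinase, read 13.50, 13.54, 13.52 and 13.48 against 13.03 to 13.41, with no overlap. Ldha differed by 0.33, Pgam2 by 0.30 and Pfkm by 0.21.

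The size of this shift depends on the scaling. After quantile normalization the medians were 0.079 for complex I (26 of 33 positive), 0.0458 for complexes II to V (25 of 38) and 0.0389 for the tricarboxylic acid cycle. Fatty acid oxidation then had 0.0619 and glycolysis 0.158, over an overall median of 0.0124. With arrays centred on their medians the tricarboxylic acid cycle turned to -0.0106. That is 0.0972 above the median of all probe sets, -0.108, the same distance as before centring. Markers of cardiomyocytes lay higher with the same hearts. All 16 had positive differences, with a median of 0.25 that was 0.0523 after quantile normalization. Their mean log2 level was 14.67 to 14.83 with pitavastatin, 13.99 to 14.96 with the other statins and 14.43 to 14.71 in controls. Ckm, the muscle creatine kinase, differed by 0.40 (SE 0.10) without overlap, and Actn2 of the Z disc by 0.29. Of these markers, 2 had an unadjusted p under 0.05. Sarcomere genes had 16 of 19 positive and a median of 0.229, which was 0.0571 after quantile normalization, and 1 had an unadjusted p under 0.05. In bulk tissue, more cells of a type and more RNA per cell cannot be told apart, and the part of cardiomyocyte content was not tested.

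Transcripts of the translation machinery lay higher as well. Of 32 cytosolic ribosomal protein genes 31 were positive, with a median of 0.203 and 14 at an unadjusted p under 0.05. Rplp0, of the ribosomal stalk, read 13.62, 13.85, 13.73 and 13.73 against 12.95 to 13.53. All 4 lay above all 12, by 0.48 on average (SE 0.14, adjusted p 0.181 in limma). Rpl7 differed by 0.26 and Rps14 by 0.32, also without overlap, and such genes have processed pseudogenes that may share probes. The list median was 0.0936 after quantile normalization and 0.0487 with centred arrays.

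Mitochondrial ribosomal proteins also lay higher. Of 41 genes 38 were positive, with a median of 0.213 as deposited and 0.226 after quantile normalization, and 18 had an unadjusted p under 0.05. With centred arrays 31 were positive and the median was 0.0579. That is 0.166 above the median of all probe sets, by construction the same distance as before centring. Mrps10 read 10.62, 10.61, 10.58 and 10.49 against 9.98 to 10.42, above all 12 others. Its difference was 0.33 (SE 0.08, adjusted p 0.127 in limma). Mrpl12 differed by 0.42 and Mrpl23 by 0.24. The proteasome had 25 of 31 positive, with a median of 0.117 that turned to -0.0379 with centred arrays. Both are 0.0699 above the median of all probe sets in their setting. A further Psmd11 probe set, named after its value was seen, differed by -0.53 without overlap (adjusted p 0.0586 in limma).

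Antigen presentation genes also lay higher. Class I presentation had 15 of 17 positive and a median of 0.198, and all 6 class II genes were positive with a median of 0.267. At an unadjusted p under 0.05 were 5 class I genes and 1 class II gene. The class II mean was 10.63 to 10.85 with pitavastatin, within the 9.88 to 11.04 of the other statins and the 10.04 to 11.01 of controls. After quantile normalization the medians were 0.159 and 0.304. Psme1, of the interferon-inducible proteasome activator, read 12.73, 12.71, 12.70 and 12.73 against 12.08 to 12.58, and 12.09 to 12.74 in controls. Its difference was 0.32 (SE 0.10, adjusted p 0.189 in limma). Psmb9, an immunoproteasome subunit, differed by 0.43, and B2m, the class I light chain, by 0.24. Of class II, H2-Eb1 differed by 0.37 and the invariant chain Cd74 by 0.31. Macrophage markers, beside these, had 11 of 17 positive and a median of 0.0623, and Cd163, a marker of resident macrophages, lay lower by 0.44. The 3 lymphocyte markers above the filter had a median of -0.0608.

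**Figure D3:**
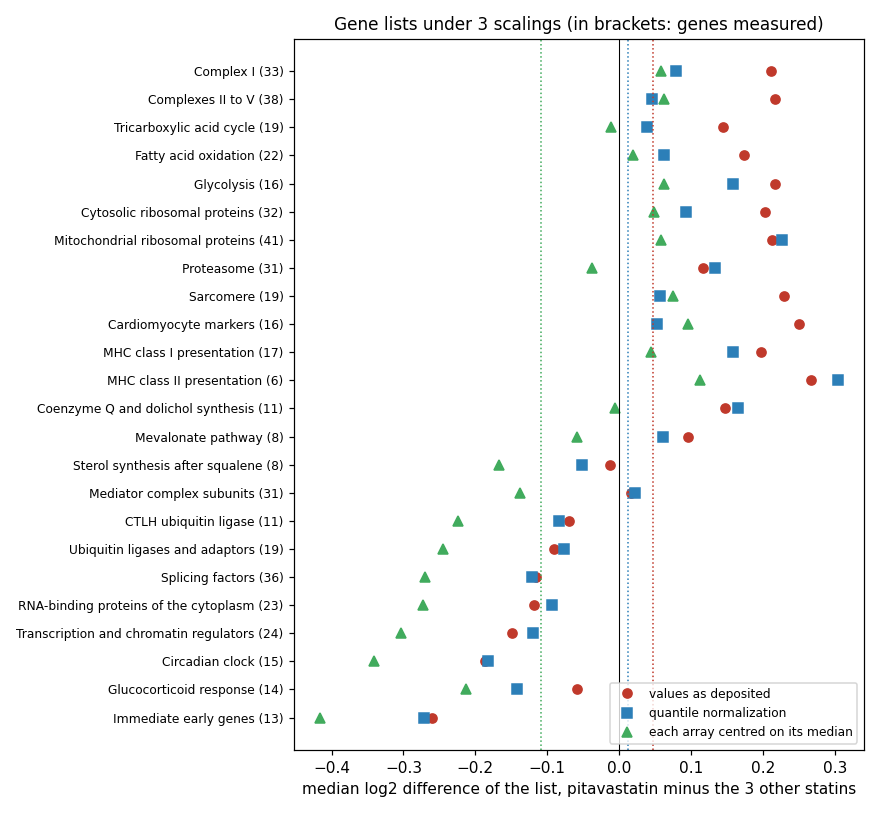
Median log2 difference of 24 gene lists, pitavastatin minus the 3 other statins, as deposited (circles), after quantile normalization (squares) and with each array centred on its median (triangles). Dotted lines mark the median of all probe sets, at 0.0469, 0.0124 and -0.108. Respiratory chain lists move toward the overall median after quantile normalization, while mitochondrial ribosomal proteins, clock genes and immediate early genes keep their distance.

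On the lower side stood genes of transcription, splicing and RNA control. Of 24 transcription and chromatin regulators 18 had negative differences, with a median of -0.149, and 9 had an unadjusted p under 0.05. Kmt2d, a histone H3 lysine methyltransferase of enhancers, read 12.09, 11.87, 12.21 and 11.80 against 12.22 to 12.67. All 4 lay below all 12, by 0.43 on average (SE 0.09, adjusted p 0.0801 in limma). Smarca2, an ATPase of chromatin remodelling, differed by -0.40, the acetyltransferase Crebbp by -0.25 and Kmt2a by -0.23. The median was -0.12 after quantile normalization.

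Of 36 splicing factors 29 were negative, with a median of -0.115 and 10 at an unadjusted p under 0.05. Hnrnpa1 differed by -0.43, Tra2a by -0.41 and Luc7l3 by -0.27, while Hnrnpl lay higher, by 0.46. Cytoplasmic RNA-binding proteins had 21 of 23 negative and a median of -0.118. Atxn1, a transcriptional repressor counted in that list for its binding of RNA, read 10.73, 10.56, 10.68 and 10.66 against 10.97 to 11.16. The 2 groups were narrow and apart, with a difference of -0.42 (SE 0.09, adjusted p 0.0801 in limma). Tnrc6a, the partner of argonaute in microRNA silencing, differed by -0.34 without overlap. Cpeb2, which controls translation through poly(A) tails, differed by -0.38, and Cnot4, a ubiquitin ligase tied to deadenylation, by -0.26. After quantile normalization the medians were -0.121 for splicing and -0.0938 for RNA-binding proteins.

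The Mediator subunits did not follow the called Med1 probe set as a group. Of 31 measured subunits 16 were positive and 15 negative, with a median of 0.0163 that was -0.138 with centred arrays. The 31 include Med1 itself, by its brightest probe set, which differed by -0.01. Cdk8 and Med13l, of the kinase module, lay lower by 0.45 and 0.42, both without overlap. Med26 differed by -0.34, and Med6 of the head module lay higher, by 0.25, without overlap.

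Ubiquitin ligases lay lower, with 14 of 19 negative and a median of -0.0904. Birc6 differed by -0.46, Mdm2, the ligase of p53, by -0.26 and Cul3 by -0.21. The CTLH ligase, a large complex built around Ranbp9 and Rmnd5a, had 7 of 11 negative and a median of -0.0692. Ranbp9 differed by -0.41 without overlap, Gid8 by -0.22 and Rmnd5a by -0.20. Wdr26, a substrate-binding arm of this ligase, differed by -0.56 from pravastatin, -0.40 from rosuvastatin and -0.07 from atorvastatin. Its unadjusted F test p among the 3 other statins was 0.000171, and its adjusted p there did not pass.

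Immediate early genes, the first transcripts to respond to a stimulus, had the lowest median of the process lists. It was -0.261, with 12 of 13 negative, and -0.272 after quantile normalization with all 13 negative. The mean of the list was 8.98, 8.84, 8.69 and 8.93 with pitavastatin, and 8.87 to 9.41 with the others, a median of 9.13. The groups overlapped at 3 of the 12. Egr2 differed by -0.58 (SE 0.21), Nr4a2, an orphan nuclear receptor, by -0.53, Fosl2 by -0.42 and Jun by -0.31. Their adjusted p in limma ran from 0.143 for Fosl2 to 0.373 for Jun. In controls Fosl2 ran from 10.65 to 11.15, overlapping both.

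The circadian clock had 12 of 15 negative and a median of -0.186. Nr1d2, the repressor REV-ERB beta, read 12.21, 12.00, 12.20 and 12.25 against 12.23 to 12.72. Only the lowest of the 12 others reached the pitavastatin range, and the difference was -0.38 (SE 0.09, adjusted p 0.088 in limma). Per3 differed by -0.47 (SE 0.13), Cry2 by -0.21 and Rora by -0.22. The control mean of Nr1d2, 12.17 ± 0.20 (SD, n = 4), was close to that of pitavastatin, 12.16 ± 0.11 (SD, n = 4). Glucocorticoid-responsive genes had 12 of 14 negative with a median of -0.0581 (-0.142 after quantile normalization), among them Tsc22d3 at -0.26 and the receptor Nr3c1 at -0.21.

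The heat shock and unfolded protein response list had 13 of 19 positive and a median of 0.0751, with 2 higher and 4 lower at an unadjusted p under 0.05. The 4 lower ones were Hspa1b, Dnajb1, Dnaja1 and Hsp90aa1. The 2 higher ones, named after their values were seen, were the small heat shock protein gene Hspb1 (0.28) and the mitochondrial co-chaperonin gene Hspe1 (0.24). None of the 6 passed after adjustment. Hspa1b, the inducible Hsp70, differed by -0.99 (SE 0.25, 95% interval -1.51 to -0.46, 1.98-fold lower). It read 7.63, 7.30, 8.24 and 8.14 with pitavastatin, 8.06 to 10.12 with the others, a median of 8.88, and 8.07 to 8.72 in controls. The upper 2 pitavastatin hearts lay within the range of the others, and the adjusted p was 0.125 in limma. A near-identical copy, Hspa1a, may share its signal. Dnajb1, the Hsp40 that works with Hsp70, read 9.72, 9.60, 9.54 and 9.71 against 9.72 to 10.66, a difference of -0.57 (SE 0.13, adjusted p 0.088). Dnaja1, another Hsp40, read 10.51, 10.48, 10.49 and 10.52 against 10.54 to 11.43, below all 12 and below the controls at 10.75 to 10.85. Its difference was -0.43 (SE 0.11, adjusted p 0.127). Hsp90aa1, the inducible Hsp90, differed by -0.42 (SE 0.16). The median of the whole list, which also holds chaperones of the endoplasmic reticulum and mitochondria, turned to -0.00403 after quantile normalization and -0.0796 with centred arrays.

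**Figure D4:**
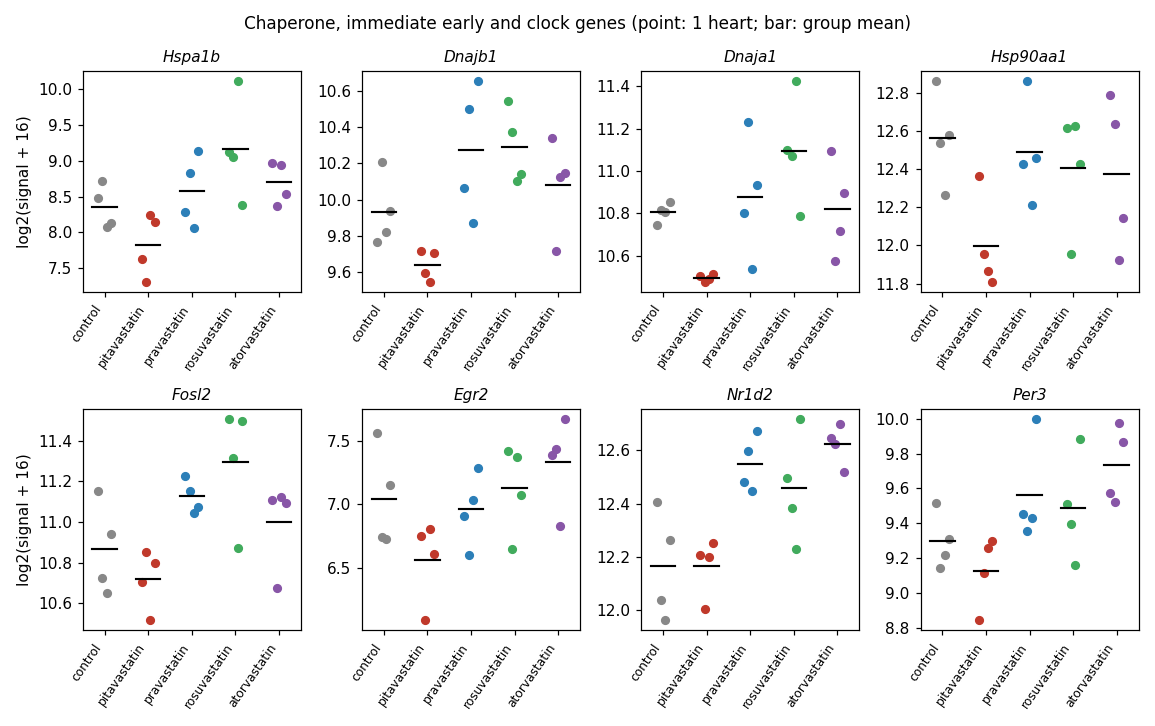
Signal as log2(signal + 16) of 4 heat shock, 2 immediate early and 2 clock genes, with 1 point per heart and a bar at each group mean, n = 4 per group. The pitavastatin mean lies below the mean of each other statin in every panel, and the 4 Dnaja1 signals, 10.48 to 10.52, lie below all other hearts.

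Promoters of 3 of these chaperones and of Per3 are shown because the genes were among the lowest of their lists. Each spans 300 bases around the first start listed by RefSeq (GRCm38.p6), with 50 bases after it, 5′ to 3′. The positions are chr17:34959189-34959488 on the minus strand for Hspa1b, chr4:40722218-40722517 on the plus strand for Dnaja1, chr8:83607925-83608224 on the plus strand for Dnajb1 and chr4:151044616-151044915 on the minus strand for Per3. Capitals in the chaperones mark the core of the heat shock element, searched as GAANNTTC, which is known to bind HSF1. Capitals in Per3 mark the D-box, searched as TTATGNAA on both strands, and the E-box CACGTG.
Hspa1b: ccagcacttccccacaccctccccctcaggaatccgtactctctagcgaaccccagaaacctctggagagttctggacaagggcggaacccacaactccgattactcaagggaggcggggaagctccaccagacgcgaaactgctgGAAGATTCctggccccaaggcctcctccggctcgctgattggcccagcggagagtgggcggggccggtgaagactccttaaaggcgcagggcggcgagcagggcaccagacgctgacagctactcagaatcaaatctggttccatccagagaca
Dnaja1: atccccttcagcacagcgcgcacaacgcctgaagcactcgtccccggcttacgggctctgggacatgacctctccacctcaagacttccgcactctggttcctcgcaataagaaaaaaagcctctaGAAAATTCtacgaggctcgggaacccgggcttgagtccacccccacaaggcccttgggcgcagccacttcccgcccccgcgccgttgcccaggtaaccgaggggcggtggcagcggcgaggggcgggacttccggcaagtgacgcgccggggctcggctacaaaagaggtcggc
Dnajb1: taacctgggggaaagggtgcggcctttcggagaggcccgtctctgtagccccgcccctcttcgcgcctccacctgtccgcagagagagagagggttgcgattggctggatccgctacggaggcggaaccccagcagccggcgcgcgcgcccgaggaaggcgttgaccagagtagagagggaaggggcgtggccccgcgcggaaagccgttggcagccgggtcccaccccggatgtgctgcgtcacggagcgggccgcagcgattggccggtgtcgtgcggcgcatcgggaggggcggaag
Per3: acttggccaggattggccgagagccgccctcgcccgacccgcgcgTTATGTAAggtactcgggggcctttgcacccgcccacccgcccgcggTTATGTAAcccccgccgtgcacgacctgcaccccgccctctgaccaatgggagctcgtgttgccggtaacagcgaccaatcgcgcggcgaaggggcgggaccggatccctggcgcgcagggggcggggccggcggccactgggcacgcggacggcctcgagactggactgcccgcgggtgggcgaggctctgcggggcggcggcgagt
Hspa1b and Dnaja1 each held 1 core and Dnajb1 none, while 5.72% of the 9056 listed promoters held one. Per3 held 2 D-boxes, found in 1.9% of promoters, and no E-box, found in 10.1%. These windows are short, and a match is not a binding site.

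The pathway that statins block showed no call. Of 8 measured genes of the mevalonate pathway 5 were positive and 3 negative, with a median of 0.0961 that turned to -0.0585 with centred arrays. Fdps, which makes farnesyl diphosphate, differed by 0.34 (SE 0.15) and Idi1, the isomerase before it, by 0.28 (SE 0.11), each with an adjusted p above 0.2 in limma. Mvd differed by 0.29. Ggps1, which makes the geranylgeranyl group, differed by -0.31. Hmgcs1, which makes the substrate of the blocked enzyme, read 12.94, 12.78, 12.84 and 12.81 against 12.58 to 13.31. The difference was -0.06 (95% interval -0.25 to 0.12). Sqle, the squalene epoxidase, was dim and differed by 0.12 (95% interval -0.29 to 0.53), a sign that turned under quantile normalization and centring. After squalene, 4 of 8 genes were on each side with a median of -0.0121, with Hsd17b7 at -0.35 and Cyp51 at -0.16. Srebf1, the factor that drives fatty acid synthesis, differed by 0.23.

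Branches of the pathway differed in sign. Coenzyme Q and dolichol synthesis had 9 of 11 positive and a median of 0.148, which was 0.165 after quantile normalization. With centred arrays it was -0.00615, which is 0.102 above the median of all probe sets, the same distance as before centring. Coq9 differed by 0.26, Coq2 by 0.19 and Coq8a by 0.16, while Nus1, of dolichol synthesis, differed by -0.22. Prenylation enzymes and small GTPases had 12 of 17 negative and a median of -0.0194. Rock1, a kinase that regulates actin and myosin contraction, read 12.95, 12.78, 12.99 and 12.96 against 13.01 to 13.29, below all 12, by 0.22 (SE 0.07, adjusted p 0.213 in limma). Statin transport and metabolism genes had 8 of 10 negative and a median of -0.0456.

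Signalling and metabolic lists had medians from -0.0706 to 0.0919. Insulin and mTOR signalling had 11 of 18 negative and a median of -0.0356, with 5 lower at an unadjusted p under 0.05. AMP-activated kinase had 10 of 16 negative and a median of -0.0385, and muscle atrophy and FoxO genes 9 of 13 negative with a median of -0.0706. PPAR and fasting genes were split 7 and 7, with a median of 0.0199, and SREBP regulation 6 and 6, with a median of 0.0127 that was -0.142 with centred arrays. Interferon response genes had 15 of 20 positive and a median of 0.0919. Inflammation and endothelial activation had 6 of 11 positive and a median of 0.0187.

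Genes of muscle excitation had small differences on their brightest probe sets. Another Ryr2 probe set, named after its value was seen, differed by -0.57 without overlap (adjusted p 0.0896 in limma). Calcium handling had 11 of 14 positive, with a median of 0.139, and potassium and sodium channels 11 of 17, with a median of 0.0774. At an unadjusted p under 0.05, 2 calcium handling genes were higher and 0 lower, and 1 channel gene was higher and 3 lower. Fetal and stress genes of the heart had 9 of 17 positive and a median of 0.0423, with 1 higher and 3 lower at that p. With centred arrays these 3 medians were -0.0157, -0.0772 and -0.112. Heme and iron genes had 11 of 16 positive with a median of 0.139, and oxidative stress defence 15 of 21 with a median of 0.143. The last 2 were -0.0161 and -0.0112 with centred arrays.

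Stress defence, vessel and remodelling genes were mixed. Gclm, a subunit of glutathione synthesis and a target of NRF2, differed by -0.62 (SE 0.20) and Txnrd1, another target, by -0.20, while Prdx2 lay higher by 0.21. Hand2, a transcription factor of heart development, read 8.76, 8.81, 8.73 and 8.56 against 8.94 to 9.41, below all 12, by 0.45 (SE 0.10, adjusted p 0.0864 in limma). Tbx20 differed by -0.34 and Nfatc3 by -0.25. Nos3, the endothelial nitric oxide synthase known as a statin target, differed by 0.34 (SE 0.14) and Thbd, thrombomodulin, by -0.20. Of 10 genes of nitric oxide and endothelial protection 5 lay on each side, with a median of -0.0175. Kcnj5, of the acetylcholine-gated potassium channel, differed by -0.25 and Kcnk3, a leak channel, by 0.21. Of 27 matrix and fibrosis genes 16 were positive, with a median of 0.0259 that turned to -0.129 with centred arrays. Col4a1 differed by 0.23 and Loxl1 by 0.25.

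Markers of other cell types did not move as one. The medians were 0.0673 over 16 endothelial, 0.0259 over 15 fibroblast and 0.0446 over 14 smooth muscle and pericyte markers. Flt1, a receptor for VEGF, differed by -0.29 and Egfl7, an endothelial secreted factor, by 0.25. Dcn of fibroblasts differed by 0.27. The mean of the 4 atrial and conduction markers was 10.79 in pitavastatin 2 and 8.86 to 9.08 in the other 3 pitavastatin hearts, against 8.46 to 10.91 with the other statins. Their median difference was 0.433, and -0.194 without pitavastatin 2. The 3 epicardial markers above the filter had negative differences with a median of -0.123. Few markers of the remaining types were above the filter. The median was 0.207 over 4 neutrophil and platelet, 0.163 over 4 adipocyte, 0.29 over 3 skeletal muscle and -0.00803 over 3 Schwann cell and neuron markers. The skeletal muscle median was -0.0543 without pitavastatin 2.

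The direction went with gene size, a feature the comparison did not use. Of probe sets with 1 gene, 99.8% had a genomic span in the RefSeq table. The median span was 45.9 kb for the lower probe sets without overlap, 8.28 kb for the higher ones and 29 kb for all tested. These sets also differed in brightness, with median log2 signals of 10.58, 11.51 and 8.776, and the spans were not matched for it. Probe sets were split by span into 4 classes of equal size. In the class with the shortest genes, up to 12.5 kb, 9.8% were higher and 4.32% lower at an unadjusted p under 0.05. In the class with the longest genes, above 69 kb, 3.03% were higher and 11.6% lower. The median difference was 0.0908 in the shortest and -0.0147 in the longest class, and 0.0557 and -0.0452 after quantile normalization. With arrays centred on their medians both were negative, at -0.0638 and -0.169. In 4 classes of mean signal, 138 were higher and 73 lower among the dimmest, and 556 higher and 869 lower among the brightest.

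On each array the mean log2 signal of the longest class minus the shortest was -0.56, -0.58, -0.59 and -0.55 with pitavastatin. With the other statins it ran from -0.79 through a median of -0.51 to -0.28, with rosuvastatin 3 and atorvastatin 2 at the ends. Controls ran from -0.63 to -0.36. The pitavastatin arrays lay close together inside both ranges. Their median signals were 80.2 to 104. That range is set by the pitavastatin arrays themselves, and few other arrays fall in it. The 4 other statin arrays within it had values from -0.54 to -0.43, above all 4 of pitavastatin. The nearest were rosuvastatin 2 at -0.537 and pitavastatin 4 at -0.552. Of the controls within that range, control 1 was above the pitavastatin arrays at -0.363, control 2 among them at -0.589 and control 3 below at -0.633. The part of array brightness was not tested. In the fit with the median signal as a covariate, the median difference was 0.0975 for the shortest and -0.0396 for the longest class.

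**Figure D5:**
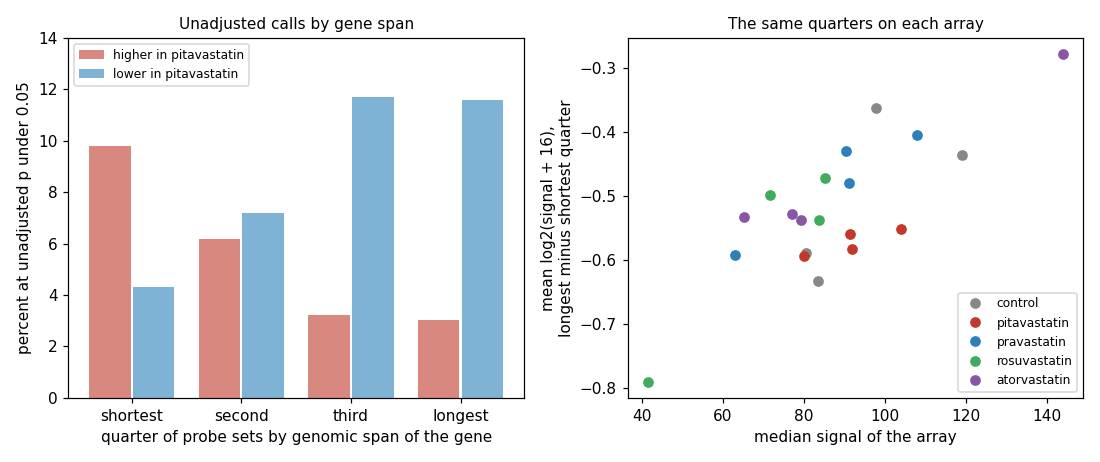
Left, percent of probe sets at an unadjusted p under 0.05 in each class of genomic span, from the shortest to the longest genes, as bars from 0. Right, mean log2(signal + 16) of the longest class minus the shortest, against the median signal of the array, with 1 point per heart. The higher share is 9.8% in the shortest and 3.03% in the longest class, and the lower share 4.32% and 11.6%, and the 4 pitavastatin arrays sit between -0.59 and -0.55.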

How the data were processed

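Left ventricular RNA of 20 mice, 100 ng per heart, was hybridised to Affymetrix GeneChip arrays of the mouse genome. The deposited values are MAS5 signal intensity per probe set on a linear scale, made by the authors per the submitters' processing notes. Version, scaling target and detection calls are not given in the sources used here. The tests used log2(signal + 16) computed from those deposited values. After removal of 64 Affymetrix control probe sets, the brightest 50% by mean signal of the other 45037 were tested. Symbols came from the platform annotation: 34945 probe sets had 1 symbol, 932 several and 9160 none, and only the first kind was named.

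limma 3.58.1 in R 4.3.3 fitted 1 mean per group over all 20 arrays with a trend in the prior (15 residual and 4.23 prior degrees of freedom). The mouse was the replicate. Array measures used two-sided exact permutation of 4 against 12 arrays.

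The genes named were called probe sets without overlap, the 10 highest and 10 lowest differences among the 100 smallest p, up to 4 genes of smallest p per list, and fixed genes of cholesterol synthesis. Some genes that this rule covers are left out here. A few named after their values were seen are marked as such. The comparison, 53 gene lists and rules were chosen with earlier results of these data known. The procedure was tested on simulated data. Alternatives were quantile normalization, median centring, other pseudocounts and filters, no trend, array weights, a replicate block, 1 probe set per gene, statin arrays alone, a median signal covariate, and arrays or groups left out. Counts without overlap, unadjusted counts and span medians were followed after seeing the data.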

Additional observations from a re-analysis of the deposited data

Results flagged for a closer look

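Of 900 groups of 4 hearts, 42 held a heart whose gap to the nearest other, relative to the group's range, exceeded Dixon's 95% critical value. Chance flags about 1 in 20 groups. All values are log2, and the range of the other 3 hearts of the group follows each one.

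With pitavastatin, heart 2 stood apart for 5 items. The mean of its atrial and conduction markers was 10.79 (others 8.86 to 9.08) and that of its skeletal muscle markers 10.52 (10.16 to 10.21). It was high for Oxct1 at 14.24 (14 to 14.04) and Actn2 at 14.25 (14.03 to 14.06), and low for Tyw5 at 8.86 (9.14 to 9.17). Heart 3 was low for Esrp2 at 10.04 (10.18 to 10.19) and high for Rps14 at 13.90 (13.74 to 13.75).

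In control 1, 7 items stood apart. Med1 was 10.18 (9.50 to 9.60), Suz12 10.51 (10.35 to 10.37), Rock1 13.26 (12.90 to 12.93) and Nr3c1 11.52 (11.27 to 11.31). Hba-a2 was 10.87 (11.30 to 11.36), the cardiomyocyte marker mean 14.43 (14.68 to 14.71) and the macrophage marker mean 9.58 (9.87 to 9.90). Control 2 was low for Egfl7 at 9.98, Hmgcs1 at 12.69, the fibroblast marker mean at 11.34 and the smooth muscle and pericyte marker mean at 10.19. Control 3 was high for Nus1 at 11.25, and control 4 for the nitric oxide list mean at 9.74.

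With pravastatin, Dcn was 12.75 in heart 1 (12.36 to 12.38). In heart 2, Eif4e2 was 9.63, Fdps 6.66 (7.18 to 7.20) and the Actb 3′ to 5′ ratio 2.01 (2.30 to 2.33). In heart 3, Zfp516 was 9.58 (9.71 to 9.73) and Alas2, the single erythroid marker measured, 8.03 (7.75 to 7.78). In heart 4, Cnot4 was 13.01 and Per3 10 (9.36 to 9.45).

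With rosuvastatin, the ubiquitin ligase mean was 11.08 in heart 1 (10.94 to 10.96). In heart 2, Tra2a was 9.94 (10.36 to 10.39) and Rmnd5a 10.48. In heart 3, the dimmest array, Zfp871 was 10.31 and Egfl7 10.34. With atorvastatin, Ggps1 was 10.85 and Loxl1 9.98 in heart 1, and Med13l 11.45 and Med6 9.28 in heart 3. In heart 2, the brightest array, Fosl2 was 10.67 (11.09 to 11.12), Txnrd1 11.06, the insulin and mTOR list mean 10.40 and the mean signal of the longest minus the shortest genes -0.278 (-0.54 to -0.53).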

How the results depend on the processing

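Across 16 alternative settings and 16 fits that each left out 1 statin array, 3690 of 3692 values of 116 genes kept their direction, and 26 of 53 gene lists kept the sign of their median in every one. The 2 exceptions were Sqle after quantile normalization (-0.0111) and centring (-0.0344). Pseudocounts of 1 and 64 kept all 5 calls. Counts of calls against the mean of the 3 statins, pravastatin, rosuvastatin and atorvastatin, 5, 2, 1 and 0 in the main setting, are given in that order where they moved. Quantile normalization gave 17 against the mean, 1 against pravastatin and 1 against atorvastatin. Centring gave 0, 0, 0 and 0. The brightest 30% of probe sets gave 17, 5, 3 and 1. Array weights gave 1382 (455 higher), 167, 191 and 58. The 16 statin arrays alone gave 110 (10 higher), 4, 8 and 3. Median signal as a covariate gave 247 (115 higher), 5, 0 and 1. Without the dimmest and brightest arrays there were 44 (1 higher), 5, 0 and 1. With 1 probe set per gene there were 3 against the mean, 0 against rosuvastatin and 1 against atorvastatin. Without the filter, and likewise without the trend, there were 0 against pravastatin and 0 against rosuvastatin. With the pravastatin, rosuvastatin or atorvastatin group left out of the contrast there were 1, 3 and 13. Leaving out 1 array gave 0 to 43, 0 to 4, 0 to 6 and 0 to 1. The F test among the other statins gave 0 throughout.

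Probe sets without overlap numbered 27 lower and 11 higher after centring, 115 and 52 with 1 probe set per gene, and 372 and 262 without the dimmest and brightest arrays. Quantile normalization gave 146 higher. Without the pravastatin, rosuvastatin or atorvastatin group 153, 338 and 174 were higher, and without the rosuvastatin or the atorvastatin group 418 were lower. Leaving out 1 array gave 207 to 456 lower and 95 to 233 higher. Counts without overlap can only stay or rise when arrays or groups are left out. At an unadjusted p under 0.05, 967 were lower and 305 higher after centring, 2788 and 3048 with array weights, and 1081 and 708 with 1 probe set per gene. The higher ones were 1883 without the filter, 2618 with the covariate and 2260 without the dimmest and brightest arrays. Leaving out 1 array gave 1230 to 2013 lower and 656 to 1705 higher. Fewer probe sets or arrays enter some of these fits; otherwise the cause was not tested.

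The replicate block gave 184 (8 higher), 5, 17 and 1 calls. The labels share replicate numbers across groups, and nothing in them says what a number marks. Over 40 same-numbered pairs the correlation of deviations ran from -0.549 to 0.70, 18 were over 0.1, and 7 of 20 arrays correlated best with their own number. The median was 0.0782, and -0.0393 over pairs of different numbers. Some numbers did deviate together, with r from 0.441 to 0.615 among hearts 4 of control, pitavastatin, pravastatin and rosuvastatin, and all 4 pairs of pitavastatin with control were over 0.1. Pitavastatin with each other statin had pairs under 0.1, so the fit without the block was kept.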
